A study of Homo sapiens with 12 samples.

Results

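The genes described here encode the writers of histone lysine methylation, the Polycomb proteins and the DNA methyltransferases, 50 genes of the 14698 whose read counts were analysed. They were listed by what their proteins do, though with earlier results of these data known. Each symbol was matched to a gene ID of the count table, and symbols absent from it were to be dropped, so all 50 are found there. The RNA came from T98-G, an established human glioblastoma cell line, kept in culture for 48 h with either 0.1% DMSO, the solvent, or 1 µM onametostat, a small molecule inhibitor of the arginine methyltransferase PRMT5. Both were given under normoxia (20% oxygen) or hypoxia (1% oxygen), so that there were 4 groups, each sequenced in 3 experiments. All 4 groups are the same cell line, so the p-values measure only the spread between 3 experiments with 1 line. The comparisons ask how the inhibitor and the oxygen supply each changed the transcripts of this machinery, and whether the inhibitor acted differently when oxygen was low.

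Histone lysine methyltransferases place methyl groups on defined lysines of histone tails, and the position of the lysine largely sets what follows: methylation by the COMPASS enzymes marks active promoters and enhancers, methylation by the SUV39 and EHMT enzymes marks silent chromatin, and methylation by SETD2 follows transcribing polymerase through gene bodies. Polycomb proteins work as 2 families of complexes, PRC2, whose catalytic subunit is EZH2 or EZH1, and PRC1, a ubiquitin ligase built on RING1 or RNF2, and together they hold developmental genes silent. DNA methyltransferases set (DNMT3A and DNMT3B) and copy (DNMT1) methylation of cytosine. PRMT5, the target of onametostat, methylates arginines rather than lysines, on histones and on splicing factors.

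The number of counted reads set what could be seen. Total counts were between 7641280 and 45977729 in 11 of the 12 libraries and 403279 in library 3 of onametostat in hypoxia, where a single read is 2.69 CPM (counts scaled to the library total and by TMM factors) and the median member had 19 reads. In that library 2978 genes had no read, against at most 77 in any other, and 53 genes stood at 4 times or more the highest of the other libraries with at least 10 reads, none of them among the 50. The study's own list gives this library more sequenced reads than library 2 of its group, so its low total is not sequencing depth alone. Where the reads were lost was not tested. A chi-square per degree of freedom between replicates was 71.3 and 35.6 for pairs with this library, and at most 8.27 for other pairs. All results that use onametostat in hypoxia are therefore given with 12 libraries and, where it matters, without library 3. The members took between 0.33% and 0.38% of the counts of each library.

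The labels were checked against markers. Of 10 genes typical of glioma lines, 6 were among the genes analysed, with VIM (vimentin) at 1382 ± 46.7 CPM and CD44 at 1717 ± 39.7 CPM (mean ± SD, n = 3) with DMSO in normoxia, and OLIG2 near the detection limit at 0.925 ± 0.22 CPM, while NES, SOX2, GFAP and CHI3L1 were not analysed here. Of the markers of other cells, 4 of 16 were measured, and with DMSO in normoxia SNAP25 (neurons) was at 6.67 ± 0.65, CSF1R (microglia) at 1.38 ± 0.11, VWF (endothelium) at 1.71 ± 0.24 and KRT18 (epithelium) at 119 ± 5.96 CPM. SNAP25 rose with onametostat (log2 fold change 0.59 in normoxia and 0.54 in hypoxia). KRT18 rose in hypoxia (0.68 with DMSO and 0.60 with onametostat), where VWF fell (-0.73 and -1.26), and the part of such shifts in the members' results was not tested. PRMT5 itself was at 64.8, 64.8 and 65.9 CPM with DMSO in normoxia, 56.2, 58.1 and 59.1 CPM with DMSO in hypoxia, 84.9, 89.6 and 87.9 CPM with onametostat in normoxia and 75.1, 68.3 and 72.6 CPM with onametostat in hypoxia, so it rose with onametostat in normoxia (log2 fold change 0.43, SE 0.037, adjusted p = 4.41e-08) and in hypoxia (log2 fold change 0.32, SE 0.044, adjusted p = 9.41e-06) and fell in hypoxia with DMSO (log2 fold change -0.17, SE 0.037, adjusted p = 0.00230) and with onametostat (log2 fold change -0.28, SE 0.044, adjusted p = 0.000558). Genes usually induced by low oxygen were a weak readout of the label. Of 25 measured, 9 rose and 3 fell in hypoxia with DMSO, where 14.1% of all genes rose and 13.9% fell. Among the 25 were NDRG1 (log2 fold change 0.48) and EGLN3 (0.53) upwards and VEGFA (-0.47) and CA12 (-0.62) downwards. CA9 did not pass the test (0.059, adjusted p = 0.787). With onametostat 0 of the 25 rose and 8 fell in hypoxia, where 7.69% of all genes rose and 6.16% fell. The median log2 fold change of the 25 in hypoxia was 0.059 with DMSO and -0.11 with onametostat. Every direction given here, for the drug and for oxygen, rests on the group names in the labels. None of these genes checks them independently, since the drug blocks an enzyme and does not remove a transcript, and whether any group names were exchanged was not tested. For some genes the study's supplementary lists appear to give the reverse direction, and which is meant was not settled.

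Onametostat shifted most of the 50 genes, by small amounts and more often upwards than downwards. In normoxia 22 members rose, 12 fell and 16 did not pass the test (edgeR quasi-likelihood test, Benjamini-Hochberg adjusted p under 0.05 over all 14698 genes), where 27.2% of all genes rose and 29.3% fell. In hypoxia 24 rose, 9 fell and 17 did not pass, where 25.6% of all genes rose and 26.4% fell, and without library 3 the counts were again 24 and 9, beside 26.7% and 27% of all genes. The split in hypoxia moved with the processing, to 20 up and 10 down with RLE size factors and 14 up and 13 down on library sizes alone, both in edgeR, and to 15 up and 9 down with DESeq2, which changes the test as well. The median log2 fold change of the members was 0.10 in normoxia and 0.13 in hypoxia, beside -0.0080 and -0.014 over all genes. No member changed more than 2-fold: 0 of 50 had an absolute log2 fold change above 1 with an adjusted p under 0.05 in either oxygenation, where 6.11% and 7.51% of all genes did.

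Low oxygen moved fewer members, and again by less than 2-fold. With DMSO 10 rose in hypoxia, 7 fell and 33 did not pass the test, beside 14.1% and 13.9% of all genes (6 up and 7 down with DESeq2, and again 10 and 7 with RLE size factors in edgeR), and 0 members passed the 2-fold threshold, beside 0.83% of all genes. With onametostat 8 rose, 1 fell and 41 did not pass, beside 7.69% and 6.16%, with 0 members past 2-fold beside 0.728% of all genes. Without library 3 of onametostat in hypoxia these became 9 and 2, beside 8.61% and 6.94%. The count with onametostat depended on single libraries: without library 1 of onametostat in hypoxia only NSD1 and PCGF5 remained called, and without library 1 of onametostat in normoxia 5 members did. The drug comparisons share no library with each other, but each shares its groups with the oxygen comparisons. Below, a call said to be lost without, for example, DMSO in hypoxia 1 is one that failed when library 1 of that group was left out, with the log2 fold change of that fit in brackets. Of the 50, 10 genes were called in none of the 4 comparisons: EZH1, SUZ12, BMI1, CBX8, PCGF2, PCGF3, PRDM2, NSD3, SMYD3 and DNMT1.

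**Figure D1:**
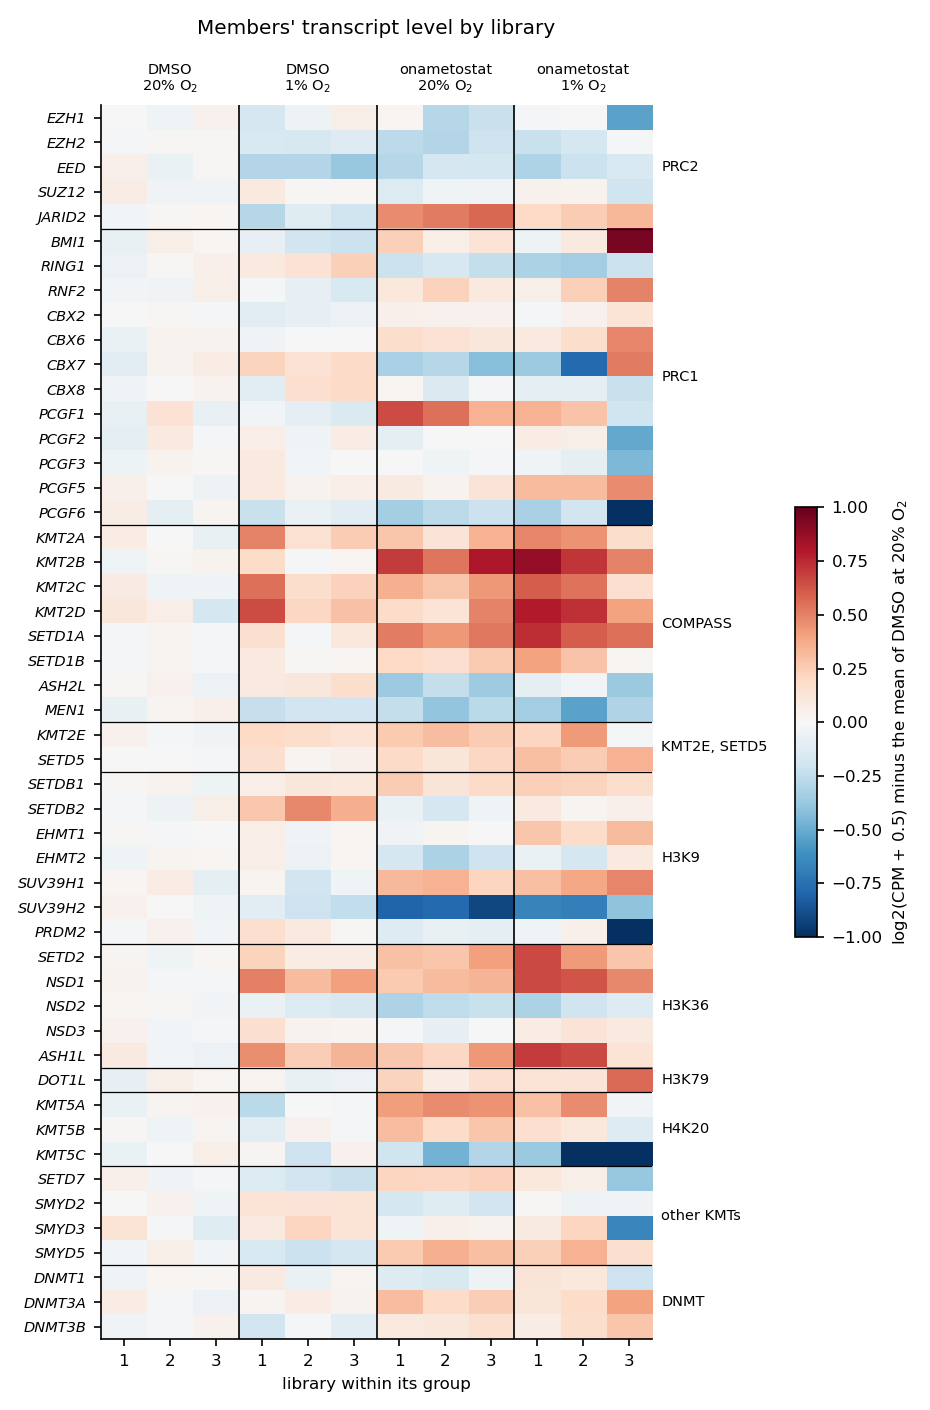
Level of the 50 members (rows, grouped by role) in the 12 libraries (columns), as log2(CPM + 0.5) minus the mean of the 3 libraries of DMSO in normoxia, with colours ending at -1 and 1. SUV39H2 is blue in all 6 onametostat libraries and KMT2B and SETD1A are red in them, while library 3 of onametostat in hypoxia, with 403279 counts, differs from its group in many rows.

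The subunits of PRC2, which methylates lysine 27 of histone H3 at silenced genes, moved in different directions. EZH2, its main catalytic subunit, was at 99, 101 and 101 CPM with DMSO in normoxia, 90.1, 89.8 and 91.6 CPM with DMSO in hypoxia, 83.5, 81.9 and 86.8 CPM with onametostat in normoxia and 85.9, 88.7 and 99.6 CPM with onametostat in hypoxia. The 3 values with onametostat in normoxia lay below the 3 with DMSO in either oxygenation, and those with DMSO in hypoxia below those with DMSO in normoxia. EZH2 fell with onametostat in normoxia (log2 fold change -0.26, SE 0.034, adjusted p = 5.76e-06) and in hypoxia with DMSO (log2 fold change -0.15, SE 0.033, adjusted p = 0.00292), and in hypoxia the effect of onametostat did not pass the test (log2 fold change -0.046, SE 0.039, adjusted p = 0.348). The difference between the 2 onametostat effects, tested as an interaction, was 0.21 on the log2 scale with an adjusted p of 0.0773.

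EED, the subunit that reads the finished mark, was at 43.6, 40.2 and 42.2 CPM with DMSO in normoxia, 34.2, 34.1 and 32.2 CPM with DMSO in hypoxia, 34.3, 37.2 and 37.1 CPM with onametostat in normoxia and 33.7, 36 and 37.7 CPM with onametostat in hypoxia. It fell in hypoxia with DMSO (log2 fold change -0.33, SE 0.054, adjusted p = 0.000301) and with onametostat in normoxia (log2 fold change -0.21, SE 0.055, adjusted p = 0.00372), and stayed near the lower level when both were combined (onametostat against DMSO in hypoxia: log2 fold change 0.054, SE 0.065, adjusted p = 0.516). EED in every library of the 3 other groups lay below the lowest value of DMSO in normoxia, and the interaction was 0.26 (adjusted p = 0.186).

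JARID2, which recruits PRC2 to chromatin, went the other way with the drug. It was at 35.5, 36.4 and 36.6 CPM with DMSO in normoxia, 29.5, 33.3 and 31.5 CPM with DMSO in hypoxia, 50.5, 52.1 and 54.1 CPM with onametostat in normoxia and 41.5, 43.2 and 45.7 CPM with onametostat in hypoxia, and the 6 values with onametostat did not overlap the 6 with DMSO. JARID2 rose with onametostat in normoxia (log2 fold change 0.53, SE 0.052, adjusted p = 2.08e-07) and in hypoxia (log2 fold change 0.43, SE 0.061, adjusted p = 1.94e-05) and fell in hypoxia with DMSO (log2 fold change -0.20, SE 0.053, adjusted p = 0.00934) and with onametostat (log2 fold change -0.30, SE 0.061, adjusted p = 0.00379). The last of these calls was lost without onametostat in hypoxia 1 (-0.27). SUZ12, the scaffold subunit, and EZH1, the catalytic paralog of EZH2, passed no test. EZH1 was at 15.9, 15.4 and 16.3 CPM with DMSO in normoxia, 14.04, 15.3 and 16.5 CPM with DMSO in hypoxia, 16.1, 12.9 and 13.5 CPM with onametostat in normoxia and 15.7, 15.8 and 10.8 CPM with onametostat in hypoxia, and its log2 fold change with onametostat was -0.17 in normoxia and 0.020 in hypoxia (adjusted p = 0.0965 and 0.932). EZH2 and SUZ12 have processed or partial copies elsewhere in the genome, and reads that fit both places may not have been counted.

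The promoters of EZH2 and EED are shown because both genes fell under onametostat in normoxia and under hypoxia. Each sequence is the 250 bases before the annotated start (RefSeq, GRCh38.p14), 5′ to 3′ on the gene's strand, and capitals mark the CCAAT box (CCAAT or its reverse complement) and the HIF core (ACGTG or GCGTG or a reverse complement). EZH2 lies at chr7:148884292-148884541, minus strand, and EED at chr11:86244503-86244752, plus strand.
EZH2: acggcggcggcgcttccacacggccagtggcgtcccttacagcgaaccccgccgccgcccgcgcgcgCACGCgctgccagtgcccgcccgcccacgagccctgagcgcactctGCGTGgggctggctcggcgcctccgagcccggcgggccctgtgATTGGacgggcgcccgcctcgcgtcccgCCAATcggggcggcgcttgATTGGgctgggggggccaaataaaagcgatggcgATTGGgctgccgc
EED: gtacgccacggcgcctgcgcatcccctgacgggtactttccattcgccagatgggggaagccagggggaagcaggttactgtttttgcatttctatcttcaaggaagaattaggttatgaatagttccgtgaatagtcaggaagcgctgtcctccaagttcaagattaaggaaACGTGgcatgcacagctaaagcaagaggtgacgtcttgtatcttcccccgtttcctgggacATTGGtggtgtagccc
EZH2 holds 4 CCAAT boxes and 2 HIF cores in this window and EED holds 1 of each. EZH2 had 2 promoter entries, of which only the first was searched. Among promoters of the same length, 32% of 35116 hold a CCAAT box and 43.2% a HIF core, so such matches are common, and they are letters rather than shown sites of binding.

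Of the 12 members of PRC1 and its CBX and PCGF subunits, 2 rose and 3 fell with onametostat in normoxia, and 5 rose and 2 fell in hypoxia. Over all genes 27.2% rose and 29.3% fell in normoxia, and 25.6% rose and 26.4% fell in hypoxia. Without library 3 of onametostat in hypoxia, 4 of the 12 rose and 3 fell in normoxia, beside 4241 and 4463 of all 14698 genes. RING1, a catalytic subunit, was at 35.99, 37.8 and 38.96 CPM with DMSO in normoxia, 40.3, 41.6 and 44.3 CPM with DMSO in hypoxia, 32.3, 33.5 and 31.7 CPM with onametostat in normoxia and 30, 29.5 and 32.3 CPM with onametostat in hypoxia. The drug lowered it in both oxygenations, with no overlap between the groups, by 0.21 on the log2 scale in normoxia (SE 0.054, adjusted p = 0.00343) and by 0.50 in hypoxia (SE 0.065, adjusted p = 6.43e-06). RING1 rose in hypoxia with DMSO (log2 fold change 0.16, SE 0.053, adjusted p = 0.0270), a call lost without DMSO in normoxia 1 (0.14), DMSO in normoxia 2 (0.17) or DMSO in hypoxia 3 (0.12). RNF2, the other catalytic subunit, had a log2 fold change with the drug of 0.15 in normoxia (adjusted p = 0.0586, and 0.0242, called higher, without library 3 of onametostat in hypoxia) and a rise of 0.24 in hypoxia (adjusted p = 0.0163), the latter lost without onametostat in hypoxia 2 (0.18).

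PCGF subunits define the variant of PRC1. PCGF5 was at 68.2, 66.2 and 63.6 CPM with DMSO in normoxia, 70.7, 67.5 and 69.2 CPM with DMSO in hypoxia, 70.1, 67.5 and 72.2 CPM with onametostat in normoxia and 82.1, 82.2 and 91.5 CPM with onametostat in hypoxia, with the 3 values of onametostat in hypoxia above those of every other library. It rose with onametostat in hypoxia (log2 fold change 0.26, SE 0.043, adjusted p = 8.66e-05) and in hypoxia with onametostat (log2 fold change 0.24, SE 0.044, adjusted p = 0.00165), and did not pass the test for onametostat in normoxia (log2 fold change 0.082, SE 0.038, adjusted p = 0.0735) or for hypoxia with DMSO (log2 fold change 0.066, adjusted p = 0.203). The interaction was 0.18 with an adjusted p of 0.186. PCGF1, the subunit of the variant with BCOR and KDM2B, was at 11.8, 13.8 and 11.8 CPM with DMSO in normoxia, 12.2, 11.6 and 11.2 CPM with DMSO in hypoxia, 19.9, 18.4 and 15.96 CPM with onametostat in normoxia and 16.01, 15.3 and 10.8 CPM with onametostat in hypoxia and rose with onametostat in both (log2 fold change 0.52, adjusted p = 7.09e-05 in normoxia; 0.43, adjusted p = 0.00295 in hypoxia, lost without onametostat in hypoxia 1 (0.37)). PCGF6 fell in normoxia (-0.27, adjusted p = 0.00847) and did not pass in hypoxia (-0.18, adjusted p = 0.157). BMI1 (PCGF4), PCGF2 and PCGF3 passed no test. BMI1 was at 32.9, 36.03 and 34.99 CPM with DMSO in normoxia, 32.8, 30.3 and 29.7 CPM with DMSO in hypoxia, 40.9, 36.3 and 38.1 CPM with onametostat in normoxia and 33.4, 37.1 and 67.3 CPM with onametostat in hypoxia, where library 3 of the last group stood apart, and when that library was left out BMI1 was called with the drug in normoxia (adjusted p = 0.0424) and in hypoxia (0.0488) and in hypoxia with DMSO (0.0207).

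The CBX proteins of canonical PRC1 read methylated histone H3. CBX7, the lowest of them per kilobase of summed exons, was at 8.53, 9.48 and 9.78 CPM with DMSO in normoxia, 10.9, 10.3 and 10.6 CPM with DMSO in hypoxia, 7.30, 7.50 and 6.77 CPM with onametostat in normoxia and 7.09, 5.18 and 13.5 CPM with onametostat in hypoxia. CBX7 fell with onametostat in normoxia (log2 fold change -0.36, SE 0.099, adjusted p = 0.00484) and in hypoxia (log2 fold change -0.68, SE 0.13, adjusted p = 0.000241). Library 3 of onametostat in hypoxia, with 5 reads, nevertheless lay above every DMSO value. CBX6 rose by 0.15 in normoxia (adjusted p = 0.0273) and 0.19 in hypoxia (adjusted p = 0.0120), the first lost without DMSO in normoxia 1 (0.11), onametostat in normoxia 1 (0.13) or onametostat in normoxia 2 (0.15). CBX2 passed only in hypoxia (0.10, adjusted p = 0.0289), and in 2 of the 12 fits that each left out a library, not in the one without library 3 of onametostat in hypoxia (adjusted p = 0.0729). CBX8 had log2 fold changes of -0.053 and -0.20 (adjusted p = 0.590 and 0.0903).

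COMPASS enzymes, which methylate lysine 4 of histone H3, rose with onametostat in normoxia while the subunits ASH2L and MEN1 fell. All 8 genes of this group passed the test in normoxia, 6 upwards and 2 downwards, and 7 did in hypoxia, 5 upwards and 2 downwards. Over all genes 27.2% rose and 29.3% fell in normoxia, and 25.6% rose and 26.4% fell in hypoxia. KMT2B was at 64.5, 66.9 and 67.9 CPM with DMSO in normoxia, 75.6, 65.7 and 67.5 CPM with DMSO in hypoxia, 108, 96.5 and 117 CPM with onametostat in normoxia and 123, 110 and 94.2 CPM with onametostat in hypoxia. Its lowest value with onametostat lay above its highest with DMSO. KMT2B rose 1.61-fold in normoxia (log2 fold change 0.68, SE 0.065, adjusted p = 1.33e-07) and 1.67-fold in hypoxia (log2 fold change 0.74, SE 0.073, adjusted p = 2.65e-07), the largest increases among the 50 in both.

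SETD1A was at 76.2, 78.5 and 76.3 CPM with DMSO in normoxia, 85.99, 76.1 and 82.7 CPM with DMSO in hypoxia, 110, 104 and 112 CPM with onametostat in normoxia and 129, 117 and 113 CPM with onametostat in hypoxia. It rose with onametostat in normoxia (log2 fold change 0.49, SE 0.047, adjusted p = 1.4e-07) and in hypoxia (log2 fold change 0.60, SE 0.052, adjusted p = 7.09e-08), with no overlap in either. Its rise in hypoxia with onametostat was smaller (log2 fold change 0.19, SE 0.052, adjusted p = 0.0249) and was called in 4 of the 12 fits that each left out a library, with log2 fold changes of 0.11 to 0.23 over them and the lowest without library 1 of onametostat in hypoxia. Its paralog SETD1B rose with the drug by 0.21 in normoxia (adjusted p = 0.00232) and 0.30 in hypoxia (adjusted p = 0.000361).

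KMT2A was at 95.3, 90.8 and 85.8 CPM with DMSO in normoxia, 128, 101 and 108 CPM with DMSO in hypoxia, 110, 98.96 and 115 CPM with onametostat in normoxia and 127, 124 and 102 CPM with onametostat in hypoxia. KMT2C was at 78.6, 72.03 and 71.8 CPM with DMSO in normoxia, 109, 83.7 and 86.9 CPM with DMSO in hypoxia, 94.9, 89.7 and 100 CPM with onametostat in normoxia and 113, 108 and 83.4 CPM with onametostat in hypoxia. KMT2D was at 94.1, 91.3 and 77.2 CPM with DMSO in normoxia, 137, 101 and 107 CPM with DMSO in hypoxia, 99.01, 95.9 and 123 CPM with onametostat in normoxia and 152, 145 and 116 CPM with onametostat in hypoxia. In all 3 genes library 1 was the highest of DMSO in hypoxia, library 3 the highest of onametostat in normoxia and library 3 the lowest of onametostat in hypoxia. All 3 rose in hypoxia with DMSO, KMT2A by 0.30 (SE 0.072, adjusted p = 0.00468), KMT2C by 0.32 (SE 0.076, adjusted p = 0.00416) and KMT2D by 0.39 (SE 0.11, adjusted p = 0.0111). Without library 1 of DMSO in hypoxia these became 0.20, 0.20 and 0.24, and KMT2D was no longer called, nor was it without library 3 of DMSO in normoxia (0.31).

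With onametostat in normoxia KMT2C rose (log2 fold change 0.36, SE 0.077, adjusted p = 0.000792), as did KMT2A (log2 fold change 0.25, SE 0.073, adjusted p = 0.00775) and KMT2D (log2 fold change 0.27, SE 0.11, adjusted p = 0.0372). KMT2A was no longer called without onametostat in normoxia 3 (0.20), and KMT2D without DMSO in normoxia 2 (0.31), DMSO in normoxia 3 (0.19) or onametostat in normoxia 3 (0.15). In hypoxia the drug raised KMT2D (log2 fold change 0.35, SE 0.12, adjusted p = 0.0185) and KMT2C (log2 fold change 0.24, SE 0.086, adjusted p = 0.0280), and KMT2A did not pass (log2 fold change 0.15, SE 0.081, adjusted p = 0.133). KMT2D lost that call without DMSO in hypoxia 2 (0.25), DMSO in hypoxia 3 (0.29) or onametostat in hypoxia 1 (0.30), and KMT2C without DMSO in normoxia 2 (0.22), DMSO in normoxia 3 (0.22), DMSO in hypoxia 2 (0.15), DMSO in hypoxia 3 (0.18), onametostat in hypoxia 1 (0.18) or onametostat in hypoxia 2 (0.25). KMT2D also rose in hypoxia with onametostat (log2 fold change 0.46, SE 0.12, adjusted p = 0.0148), which was lost without onametostat in normoxia 1 (0.41), onametostat in normoxia 2 (0.39) or onametostat in hypoxia 1 (0.41). Parts of KMT2C have near-identical copies elsewhere in the genome, so its counts are uncertain.

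ASH2L, a core subunit of every COMPASS complex, was at 63.6, 64.98 and 60.2 CPM with DMSO in normoxia, 67.1, 67.9 and 71.3 CPM with DMSO in hypoxia, 48.9, 53.4 and 48.95 CPM with onametostat in normoxia and 58.7, 61.8 and 48.4 CPM with onametostat in hypoxia. MEN1, which encodes menin and belongs to the KMT2A and KMT2B complexes, was at 66.2, 71.2 and 72.3 CPM with DMSO in normoxia, 59.6, 61.2 and 61.2 CPM with DMSO in hypoxia, 59.1, 53.1 and 57.95 CPM with onametostat in normoxia and 54.8, 48.1 and 56.5 CPM with onametostat in hypoxia. Both were lower in each onametostat group than in the DMSO group of the same oxygenation, with no overlap. ASH2L fell by 0.32 on the log2 scale in normoxia (SE 0.047, adjusted p = 2.15e-05) and by 0.21 in hypoxia (SE 0.055, adjusted p = 0.00392, lost without onametostat in hypoxia 1 (-0.18)). MEN1 fell by 0.31 in normoxia (SE 0.050, adjusted p = 5.63e-05) and by 0.22 in hypoxia (SE 0.060, adjusted p = 0.00596, lost without onametostat in hypoxia 2 (-0.15)). Oxygen separated them: MEN1 also fell in hypoxia with DMSO (log2 fold change -0.21, SE 0.049, adjusted p = 0.00478), whereas ASH2L rose there (log2 fold change 0.13, SE 0.046, adjusted p = 0.0460, called in 4 of the 12 fits that each left out a library) and with onametostat (log2 fold change 0.24, SE 0.056, adjusted p = 0.0106, lost without onametostat in normoxia 1 (0.21), onametostat in hypoxia 1 (0.26) or onametostat in hypoxia 2 (0.20)).

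KMT2E and SETD5, which carry a SET domain of this family, rose with the drug in both oxygenations. SETD5 rose by 0.18 in normoxia and 0.21 in hypoxia (adjusted p = 0.00144 and 0.00101). KMT2E rose by 0.28 in normoxia (adjusted p = 4.59e-05), while its call in hypoxia (0.13, adjusted p = 0.0455) held in only 2 of the 12 fits that each left out a library, with 0.033 without library 2 of onametostat in hypoxia and 0.23 without library 1. KMT2E also rose in hypoxia with DMSO (0.17, adjusted p = 0.00802), a call lost without DMSO in normoxia 2 (0.16), DMSO in normoxia 3 (0.16) or DMSO in hypoxia 1 (0.15).

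**Figure D2:**
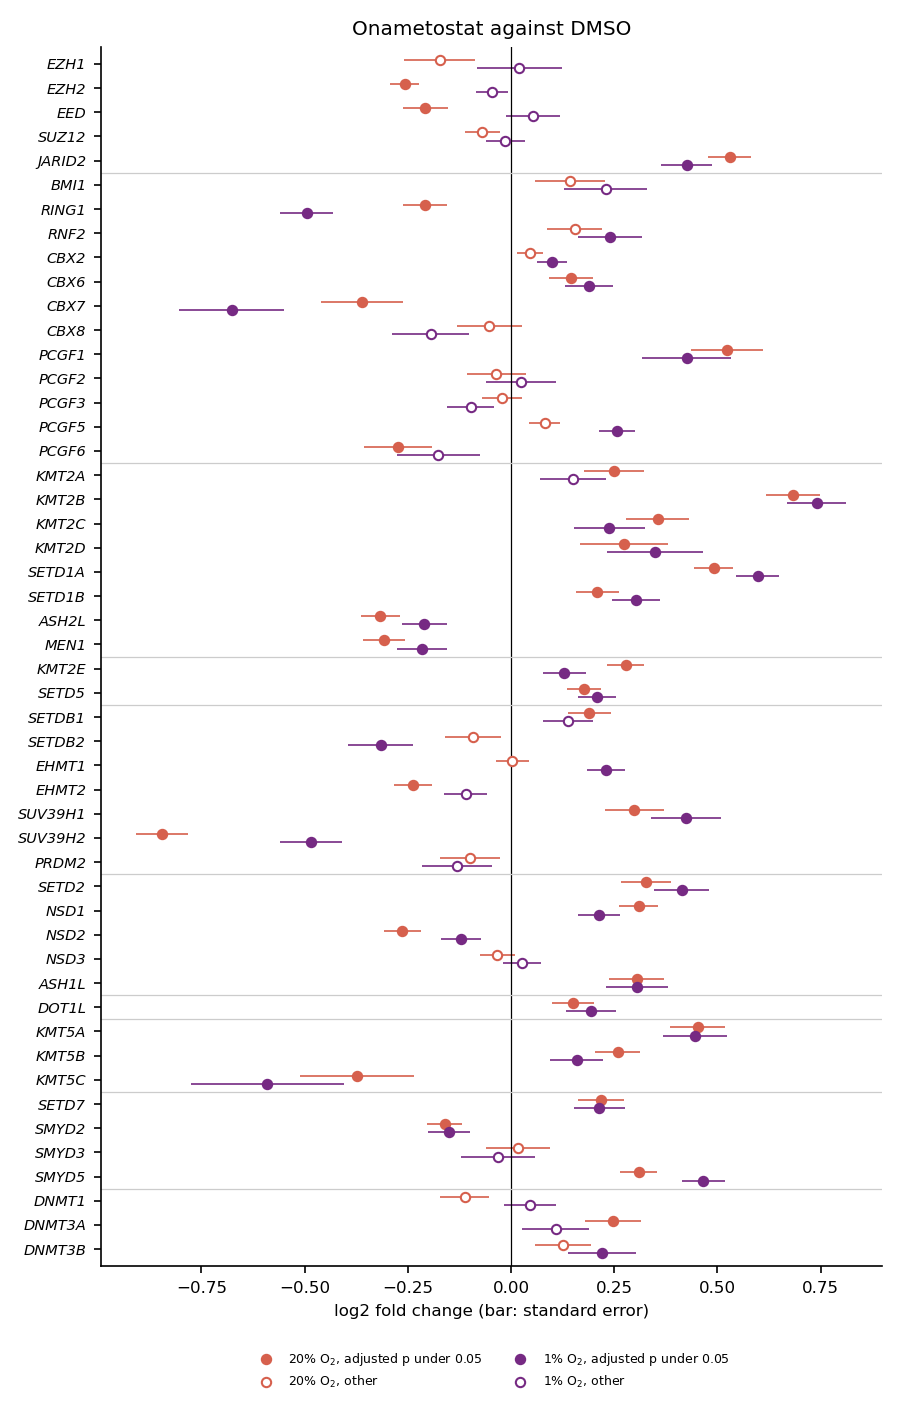
Log2 fold change of onametostat against DMSO for each member in normoxia and in hypoxia, with bars of 1 standard error and filled points where the adjusted p was under 0.05 (edgeR, n = 3 libraries per group). SUV39H2 (-0.85 and -0.49) lies well below 0 and KMT2B (0.68 and 0.74) well above 0 in both oxygenations, and 27 members are filled in both with the same sign.

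The paralogs SUV39H1 and SUV39H2, which both trimethylate lysine 9 of histone H3 in constitutive heterochromatin, moved in opposite directions. SUV39H2 was at 33.1, 32.1 and 31.1 CPM with DMSO in normoxia, 29.6, 27.8 and 26.9 CPM with DMSO in hypoxia, 18.2, 18.5 and 16.8 CPM with onametostat in normoxia and 19.97, 19.8 and 24.2 CPM with onametostat in hypoxia. SUV39H1 was at 21.3, 22.2 and 19.6 CPM with DMSO in normoxia, 21.4, 18.3 and 20.4 CPM with DMSO in hypoxia, 26.4, 26.8 and 24.5 CPM with onametostat in normoxia and 26, 27.6 and 29.6 CPM with onametostat in hypoxia. All 6 onametostat values of SUV39H2 lay below the 6 with DMSO, and all 6 of SUV39H1 lay above. SUV39H2 fell to 0.557 of its DMSO level in normoxia (log2 fold change -0.85, SE 0.063, adjusted p = 6.8e-09) and to 0.714 in hypoxia (log2 fold change -0.49, SE 0.075, adjusted p = 4.16e-05), the largest fall among the 50 in normoxia. SUV39H1 rose in normoxia (log2 fold change 0.30, SE 0.072, adjusted p = 0.00187) and in hypoxia (log2 fold change 0.42, SE 0.085, adjusted p = 0.000464). All 4 calls held whichever library was left out. The interaction for SUV39H2 was 0.36 (adjusted p = 0.111), and its fall in hypoxia with DMSO (log2 fold change -0.20, SE 0.059, adjusted p = 0.0206) was lost without DMSO in normoxia 1 (-0.18) or DMSO in hypoxia 3 (-0.17).

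Their promoters are shown because the 2 genes changed in opposite directions. The windows, 250 bases before the annotated start (RefSeq, GRCh38.p14) and 5′ to 3′ on the plus strand, are chrX:48695304-48695553, plus strand for SUV39H1 and chr10:14878616-14878865, plus strand for SUV39H2. Capitals mark the HIF core, and CCAAT boxes would be marked in the same way.
SUV39H1: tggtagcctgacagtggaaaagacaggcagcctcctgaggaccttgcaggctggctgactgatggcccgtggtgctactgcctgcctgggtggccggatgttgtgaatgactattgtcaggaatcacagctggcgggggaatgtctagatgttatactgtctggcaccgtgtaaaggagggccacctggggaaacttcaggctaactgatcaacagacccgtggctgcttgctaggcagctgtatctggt
SUV39H2: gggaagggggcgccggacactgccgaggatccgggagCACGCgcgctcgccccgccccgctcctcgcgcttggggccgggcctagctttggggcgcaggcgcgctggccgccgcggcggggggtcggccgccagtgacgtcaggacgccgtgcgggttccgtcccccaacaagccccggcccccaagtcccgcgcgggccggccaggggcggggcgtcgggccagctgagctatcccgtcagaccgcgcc
SUV39H1 holds none of the motifs searched that are capitalised, and SUV39H2 holds a HIF core and no CCAAT box. SUV39H1 had 2 promoter entries, of which only the first was searched, so its other promoter could differ. Of the 50 members, 44 matched a RefSeq promoter. Only the first entry of each member was used, while the shares of all promoters count every entry. Those promoters were not limited to the genes analysed or matched in GC content, and the part of GC content in the shares was not tested. A GC box (GGGCGG on either strand) was in 33 of them (75%, beside 42.6% of all promoters), a HIF core in 32 (72.7%, beside 43.2%), a CCAAT box in 14 (31.8%, beside 32%) and an E2F site (TTTGGCGC, TTTCCCGC or TTTCGCGC on either strand) in 2, SUZ12 and NSD2 (4.55%, beside 2.32%). Matches of different motifs could overlap, and GC boxes were not capitalised.

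**Figure D3:**
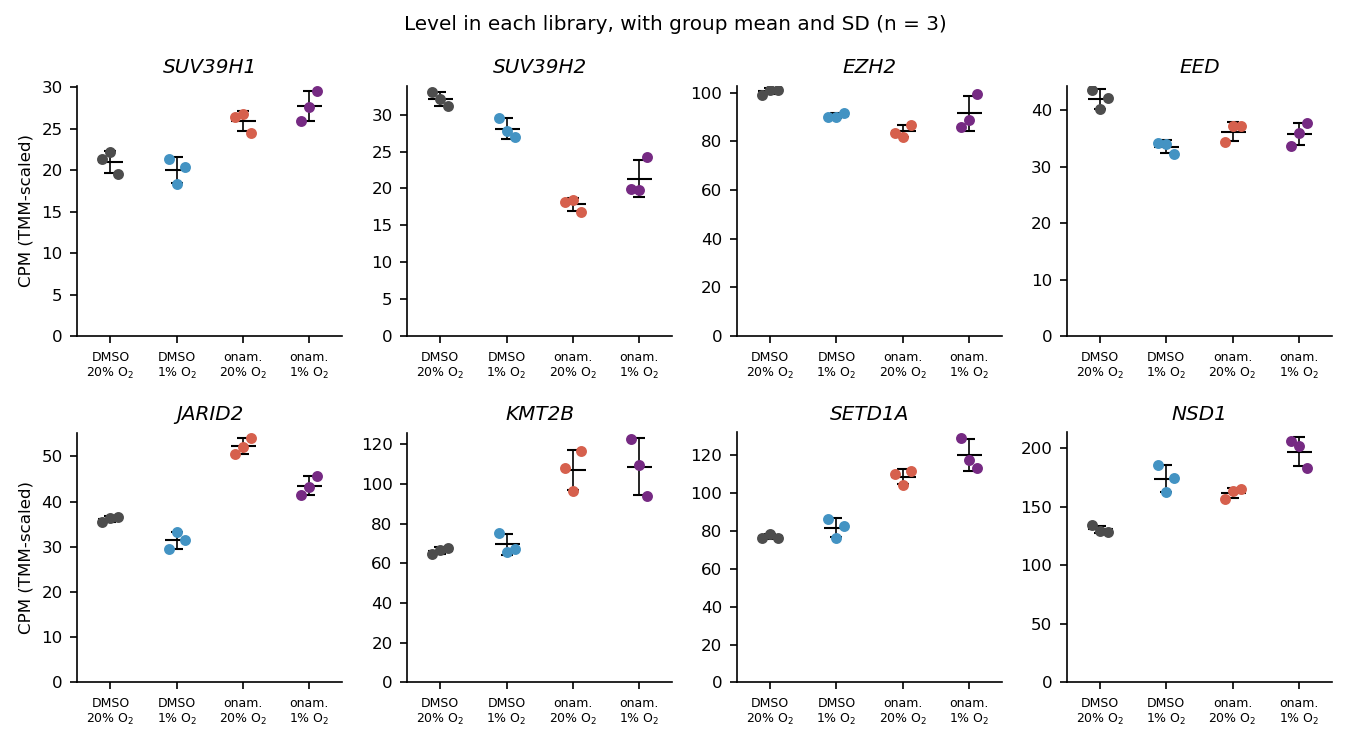
CPM of 8 members in each of the 12 libraries, with the mean and SD of each group of 3 libraries (n = 3) and axes that start at 0. SUV39H2 drops from 31.1 to 33.1 CPM with DMSO in normoxia to 16.8 to 18.5 CPM with onametostat in normoxia, while SUV39H1 stands between 24.5 and 29.6 CPM in all onametostat libraries against at most 22.2 CPM with DMSO.

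Among the other enzymes of this lysine, SETDB2 was at 23.2, 22.6 and 24.4 CPM with DMSO in normoxia, 28.3, 32.7 and 30.2 CPM with DMSO in hypoxia, 22.4, 20.7 and 22.8 CPM with onametostat in normoxia and 24.98, 23.8 and 24.2 CPM with onametostat in hypoxia. The 3 libraries of DMSO in hypoxia lay above all others. SETDB2 rose in hypoxia with DMSO (log2 fold change 0.39, SE 0.065, adjusted p = 0.000341) and fell with onametostat in hypoxia (log2 fold change -0.32, SE 0.079, adjusted p = 0.00284), 2 comparisons that share those 3 libraries. Its paralog SETDB1, which works with TRIM28, rose with onametostat in normoxia by 0.19 (adjusted p = 0.00507) and did not pass in hypoxia (0.14, adjusted p = 0.0668).

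EHMT1 and EHMT2, partners in the G9a complex that dimethylates this lysine, also differed. EHMT1 was at 56.6, 55.6 and 56.1 CPM with DMSO in normoxia, 58.7, 54.7 and 56.7 CPM with DMSO in hypoxia, 54.8, 57.3 and 56.2 CPM with onametostat in normoxia and 68.2, 63.6 and 69.95 CPM with onametostat in hypoxia, high in the 3 libraries of onametostat in hypoxia alone. It rose with onametostat in hypoxia (log2 fold change 0.23, SE 0.046, adjusted p = 0.000453) and in hypoxia with onametostat (log2 fold change 0.24, SE 0.047, adjusted p = 0.00266, lost without onametostat in hypoxia 1 (0.19)), with a log2 fold change of 0.0034 for the drug in normoxia (adjusted p = 0.953) and an interaction of 0.23 (adjusted p = 0.104). EHMT2 fell with onametostat in normoxia (log2 fold change -0.24, SE 0.045, adjusted p = 0.000262) and did not pass in hypoxia (log2 fold change -0.11, SE 0.052, adjusted p = 0.0868). PRDM2 passed no test.

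The enzymes of lysine 36 of histone H3 rose in 3 of 5 cases with the drug in each oxygenation. Over all genes 27.2% rose in normoxia and 25.6% in hypoxia. NSD1 had the smallest adjusted p of the 50 in both oxygen comparisons. NSD1 was at 134, 129 and 129 CPM with DMSO in normoxia, 186, 163 and 174 CPM with DMSO in hypoxia, 157, 163 and 165 CPM with onametostat in normoxia and 206, 202 and 183 CPM with onametostat in hypoxia. It was higher in all 3 other groups than with DMSO in normoxia and on average highest where drug and hypoxia were combined. NSD1 rose in hypoxia with DMSO (log2 fold change 0.41, SE 0.047, adjusted p = 9.87e-06) and with onametostat (log2 fold change 0.32, SE 0.051, adjusted p = 0.000688), and with onametostat in normoxia (log2 fold change 0.31, SE 0.047, adjusted p = 3.01e-05) and in hypoxia (log2 fold change 0.21, SE 0.051, adjusted p = 0.00208). Each of these calls held whichever library was left out, and the interaction was -0.10 (adjusted p = 0.605).

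ASH1L was at 85.5, 78.96 and 77.3 CPM with DMSO in normoxia, 111, 95.4 and 102 CPM with DMSO in hypoxia, 97.1, 93.1 and 109 CPM with onametostat in normoxia and 131, 128 and 88.8 CPM with onametostat in hypoxia. It followed NSD1 in direction, rising in hypoxia with DMSO (log2 fold change 0.35, SE 0.067, adjusted p = 0.000988) and with onametostat (log2 fold change 0.35, SE 0.075, adjusted p = 0.00552, lost without onametostat in hypoxia 1 (0.30)), and with onametostat in normoxia (log2 fold change 0.30, SE 0.068, adjusted p = 0.00102) and in hypoxia (log2 fold change 0.31, SE 0.075, adjusted p = 0.00241). Library 3 of onametostat in hypoxia lay below the other 2 of its group and below all 3 of DMSO in hypoxia. SETD2, the only enzyme known to trimethylate this lysine throughout gene bodies, was at 104, 98.6 and 103 CPM with DMSO in normoxia, 119, 107 and 107 CPM with DMSO in hypoxia, 125, 123 and 136 CPM with onametostat in normoxia and 161, 137 and 124 CPM with onametostat in hypoxia. It rose with onametostat in normoxia (log2 fold change 0.33, SE 0.060, adjusted p = 0.000182) and in hypoxia (log2 fold change 0.41, SE 0.066, adjusted p = 5.56e-05), and its rise in hypoxia with onametostat (log2 fold change 0.21, SE 0.066, adjusted p = 0.0428) was called in 4 of the 12 fits that each left out a library, with 0.080 to 0.29 over them and the lowest without library 1 of onametostat in hypoxia. NSD2 fell with onametostat in normoxia (log2 fold change -0.26, SE 0.045, adjusted p = 8.47e-05) and in hypoxia (log2 fold change -0.12, SE 0.048, adjusted p = 0.0448), the latter called in 2 of those 12 fits with -0.16 to -0.063 over them and the value nearest to 0 without library 1 of onametostat in hypoxia. In hypoxia with DMSO NSD2 had -0.12 (adjusted p = 0.0521), and was called lower without library 3 of onametostat in hypoxia (adjusted p = 0.0169). Its paralog NSD3 passed no test, so the 3 NSD genes went up, down and neither way with the drug in normoxia.

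DOT1L, the sole writer of lysine 79 of histone H3, rose slightly with onametostat in normoxia (log2 fold change 0.15, SE 0.052, adjusted p = 0.0208) and in hypoxia (log2 fold change 0.19, SE 0.061, adjusted p = 0.0132). The first call was lost without DMSO in normoxia 1 (0.11), DMSO in normoxia 3 (0.16), onametostat in normoxia 1 (0.12) or onametostat in normoxia 3 (0.15), and the second without DMSO in hypoxia 2 (0.18) or onametostat in hypoxia 1 (0.21).

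The writers of lysine 20 of histone H4 did not move together. KMT5A, the monomethylase whose protein peaks in mitosis, was at 39.1, 41.8 and 42.4 CPM with DMSO in normoxia, 34.1, 41.1 and 40.5 CPM with DMSO in hypoxia, 55.2, 57.3 and 56.2 CPM with onametostat in normoxia and 50.5, 57.3 and 40.4 CPM with onametostat in hypoxia. It rose with onametostat in normoxia (log2 fold change 0.45, SE 0.067, adjusted p = 2.17e-05), where the groups did not overlap, and in hypoxia (log2 fold change 0.45, SE 0.078, adjusted p = 0.000134), where library 3 lay within the DMSO values. KMT5B, which adds further methyl groups, rose in normoxia (log2 fold change 0.26, SE 0.055, adjusted p = 0.000732) and in hypoxia (log2 fold change 0.16, SE 0.064, adjusted p = 0.0477), the latter in 4 of the 12 fits that each left out a library. KMT5C, which does the same, was low, at 6.48, 6.83 and 7.12 CPM with DMSO in normoxia, 6.93, 5.84 and 7.03 CPM with DMSO in hypoxia, 5.86, 4.76 and 5.48 CPM with onametostat in normoxia and 5.16, 2.79 and 0 CPM with onametostat in hypoxia, the last value being no read in a library where 3 reads are 8.07 CPM. It fell in normoxia (log2 fold change -0.37, SE 0.14, adjusted p = 0.0304, lost without DMSO in normoxia 2 (-0.37), DMSO in normoxia 3 (-0.35) or onametostat in normoxia 2 (-0.27)) and in hypoxia (log2 fold change -0.59, SE 0.19, adjusted p = 0.0131), where the log2 fold change was -1.31 without library 1 of onametostat in hypoxia and -0.38, no longer called, without library 2.

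Of the 4 remaining lysine methyltransferases SMYD5 had the largest changes with the drug. It was at 47.1, 50.2 and 47.1 CPM with DMSO in normoxia, 43.3, 41.4 and 42.6 CPM with DMSO in hypoxia, 57.9, 61.6 and 59.4 CPM with onametostat in normoxia and 56.96, 61.2 and 53.8 CPM with onametostat in hypoxia. SMYD5 rose with onametostat in normoxia (log2 fold change 0.31, SE 0.045, adjusted p = 1.83e-05) and in hypoxia (log2 fold change 0.47, SE 0.053, adjusted p = 1.32e-06) without overlap, and fell in hypoxia with DMSO (log2 fold change -0.19, SE 0.045, adjusted p = 0.00523, lost without DMSO in normoxia 2 (-0.15)). SETD7, which also methylates non-histone proteins, rose with the drug (0.22 in normoxia and 0.21 in hypoxia, adjusted p = 0.00352 and 0.00756, the latter lost without onametostat in hypoxia 1 (0.16)) and fell in hypoxia with DMSO (-0.18, adjusted p = 0.0225, called in 7 of the 12 fits that each left out a library). In hypoxia with onametostat SETD7 had -0.19 (adjusted p = 0.0521), and SETD7 was called lower there when library 3 of that group was left out (-0.14, adjusted p = 0.0275). SMYD2 went the opposite way with the drug in normoxia, with the drug in hypoxia and in hypoxia with DMSO, with -0.16, -0.15 and 0.13 (adjusted p = 0.00446, 0.0187 and 0.0260), of which the second was lost without onametostat in hypoxia 2 (-0.13) and the third was called in 7 of those 12 fits. SMYD3 passed no test.

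Of the 3 DNA methyltransferases, DNMT3A alone was called with the drug in normoxia and DNMT3B alone in hypoxia, both upwards, a share near the 27.2% and 25.6% of all genes that rose. DNMT1, the maintenance enzyme, was at 301, 312 and 312 CPM with DMSO in normoxia, 328, 294 and 313 CPM with DMSO in hypoxia, 281, 277 and 298 CPM with onametostat in normoxia and 337, 332 and 266 CPM with onametostat in hypoxia and passed no test, with a log2 fold change of -0.11 for onametostat in normoxia (adjusted p = 0.122) and 0.045 in hypoxia (adjusted p = 0.576). When library 3 of onametostat in hypoxia was left out, DNMT1 was called lower with the drug in normoxia (-0.11, adjusted p = 0.0229) and higher in hypoxia with the drug (0.23, adjusted p = 0.00178). DNMT3A was at 14.9, 13.95 and 13.5 CPM with DMSO in normoxia, 14.4, 14.9 and 14.5 CPM with DMSO in hypoxia, 17.6, 16.1 and 16.8 CPM with onametostat in normoxia and 15.4, 16.1 and 18.8 CPM with onametostat in hypoxia. DNMT3B was at 15.1, 15.4 and 15.9 CPM with DMSO in normoxia, 13.4, 15.3 and 14.4 CPM with DMSO in hypoxia, 16.5, 16.7 and 17.4 CPM with onametostat in normoxia and 16.3, 17.5 and 18.8 CPM with onametostat in hypoxia. For both genes each onametostat mean lay above the DMSO mean of the same oxygenation. DNMT3A rose with onametostat in normoxia (log2 fold change 0.25, SE 0.067, adjusted p = 0.00471) and had 0.11 in hypoxia (adjusted p = 0.301). DNMT3B rose in hypoxia (log2 fold change 0.22, SE 0.082, adjusted p = 0.0334, lost without DMSO in hypoxia 1 (0.18), DMSO in hypoxia 3 (0.21), onametostat in hypoxia 1 (0.29) or onametostat in hypoxia 2 (0.18)) and had 0.13 in normoxia (adjusted p = 0.122).

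Levels between genes can be compared only per length, and here only roughly. The summed exons used take in those of all annotated transcripts of a gene and can exceed the length of the transcript made. The SDs below do not include this uncertainty. Per kilobase of summed exons, the highest members with DMSO in normoxia were RING1 at 20.7 ± 0.83, CBX6 at 20.6 ± 0.82, DNMT1 at 20.1 ± 0.43 and CBX2 at 16.4 ± 0.13 CPM per kb (mean ± SD, n = 3). RING1, CBX6 and DNMT1 did not differ beyond their spread. The lowest were DNMT3A at 1.02 ± 0.051, CBX7 at 1.24 ± 0.088, KMT2C at 1.39 ± 0.072 and KMT5C at 1.43 ± 0.067 CPM per kb. Within PRC2 the order was SUZ12 (14.2 ± 0.62), EZH2 (9.32 ± 0.11), EED (6.00 ± 0.25), JARID2 (5.79 ± 0.093) and EZH1 (2.27 ± 0.067 CPM per kb), in which EED and JARID2 lay within 1 SD of each other. SUV39H2 (9.00 ± 0.27) lay above SUV39H1 (6.50 ± 0.41 CPM per kb) in this group.

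The members' responses to onametostat can be set side by side for the 2 oxygenations, which have no library in common. Of the 50, 27 were called in both (54%, beside 43% of all genes), and all 27 had the same sign, 19 upwards and 8 downwards. The 8 that fell in both were RING1, CBX7, ASH2L, MEN1, SUV39H2, NSD2, KMT5C and SMYD2. Called in normoxia alone were 7 members, called in hypoxia alone 6, and in neither 10. Across the 50 genes, which are not independent replicates, the 2 sets of log2 fold changes had a Pearson r of 0.89, beside 0.79 over all genes. When the difference between the 2 effects was tested directly, 0 members passed, where 0.497% of all genes did. DESeq2 and limma voom also gave 0 members. An unadjusted p under 0.05 in the edgeR test was reached by 10 of the 50, beside 1937 of all 14698 genes. The members nearest to the threshold were EZH2 (adjusted p = 0.0773), EHMT1 (0.104) and SUV39H2 (0.111).

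**Figure D4:**
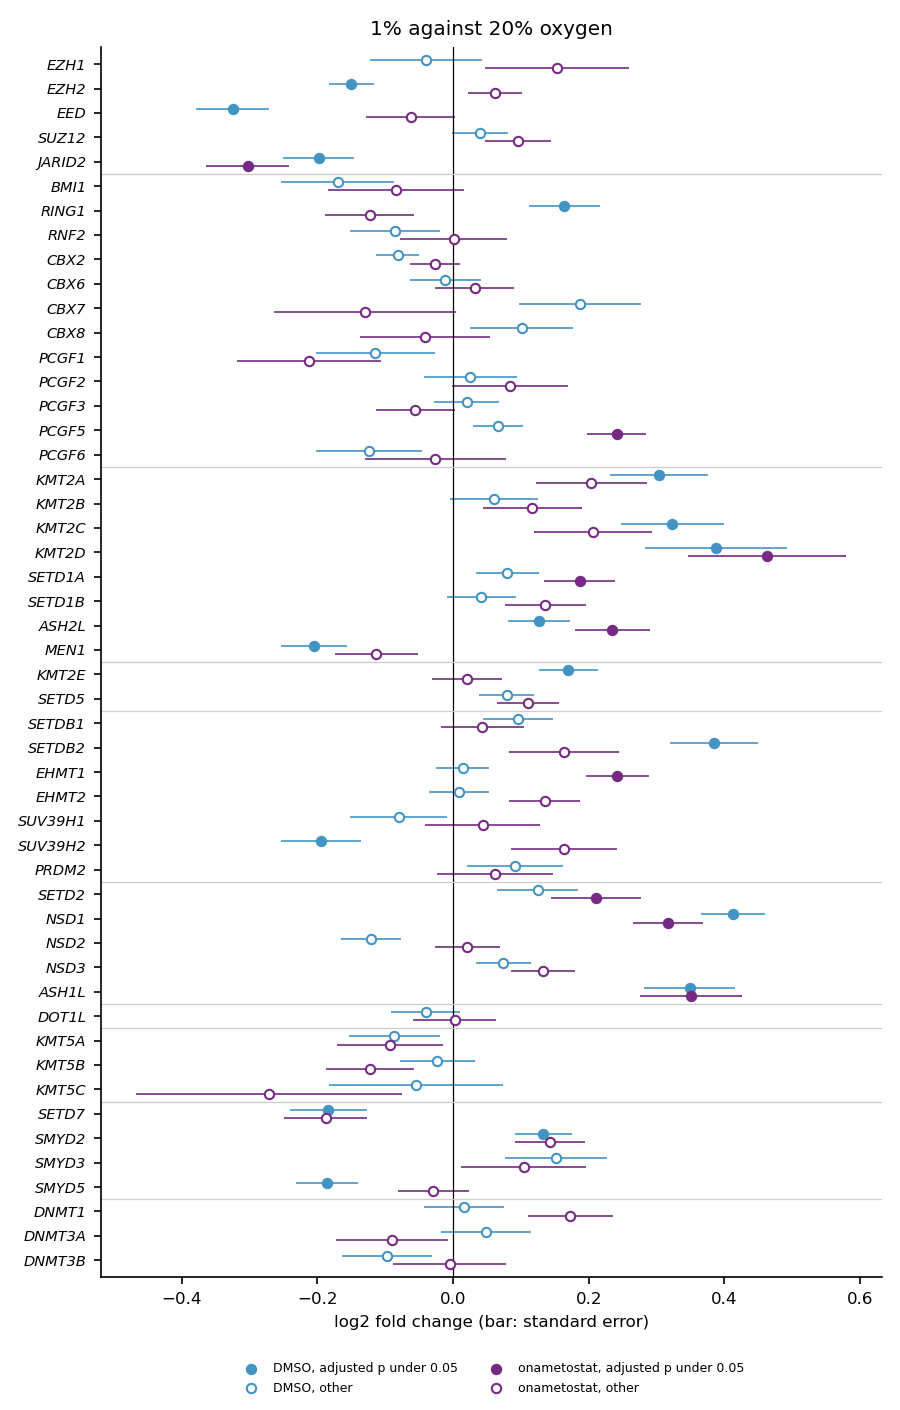
Log2 fold change of hypoxia against normoxia for each member with DMSO and with onametostat, with bars of 1 standard error and filled points where the adjusted p was under 0.05 (edgeR, n = 3 libraries per group). NSD1 (0.41 and 0.32) and ASH1L (0.35 and 0.35) are filled and above 0 in both and JARID2 (-0.20 and -0.30) below 0 in both, while EED (-0.33) and SETDB2 (0.39) are filled with DMSO only.

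Members with long summed exons rose in larger shares than the others, as counts without a test. Summed exons take in those of all annotated transcripts of a gene, so they are not the length of a single transcript. There were 18 members with summed exons of 10000 bases or more, of which 12 rose and 2 fell with onametostat in normoxia, 11 and 1 in hypoxia, 6 and 2 in hypoxia with DMSO, and 5 and 0 in hypoxia with onametostat. Of the other 32, 10 rose and 10 fell, 13 and 8, 4 and 5, and 3 and 1 in the same comparisons. Over all genes 27.2% rose and 29.3% fell, 25.6% and 26.4%, 14.1% and 13.9%, and 7.69% and 6.16%. Calls among all genes with long summed exons were not counted. Spearman's rho between exon length and log2 fold change over the 50 genes was 0.24, 0.21, 0.41 and 0.48 in these 4 comparisons, beside -0.0044, 0.028, 0.13 and 0.18 over 14691 genes. This is a description without a test, since genes share libraries. The median log2 ratio to DMSO in normoxia was also taken over 1691 genes of at least 10000 bases and 1459 genes under 3000 bases. In library 1 of DMSO in hypoxia it was 0.065 for the long genes and -0.063 for the short ones. In libraries 2 and 3 of that group it was 0.031 and 0.037 for long genes and -0.030 and -0.028 for short ones. With onametostat in normoxia the 3 libraries had 0.019, 0.016 and 0.044 for long genes and 0.040, 0.061 and 0.026 for short ones. With onametostat in hypoxia they had 0.090, 0.092 and -0.0084 for long genes and -0.0041, 0.0023 and -0.034 for short ones. For the 18 long members alone, the median was 0.22, 0.13 and 0.24 with onametostat in normoxia. It was 0.25, 0.22 and 0.17 with onametostat in hypoxia, and 0.16, 0.0535 and 0.032 with DMSO in hypoxia. The part of exon length in the rise of KMT2A, KMT2C, KMT2D, NSD1 and ASH1L was not tested.

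**Figure D5:**
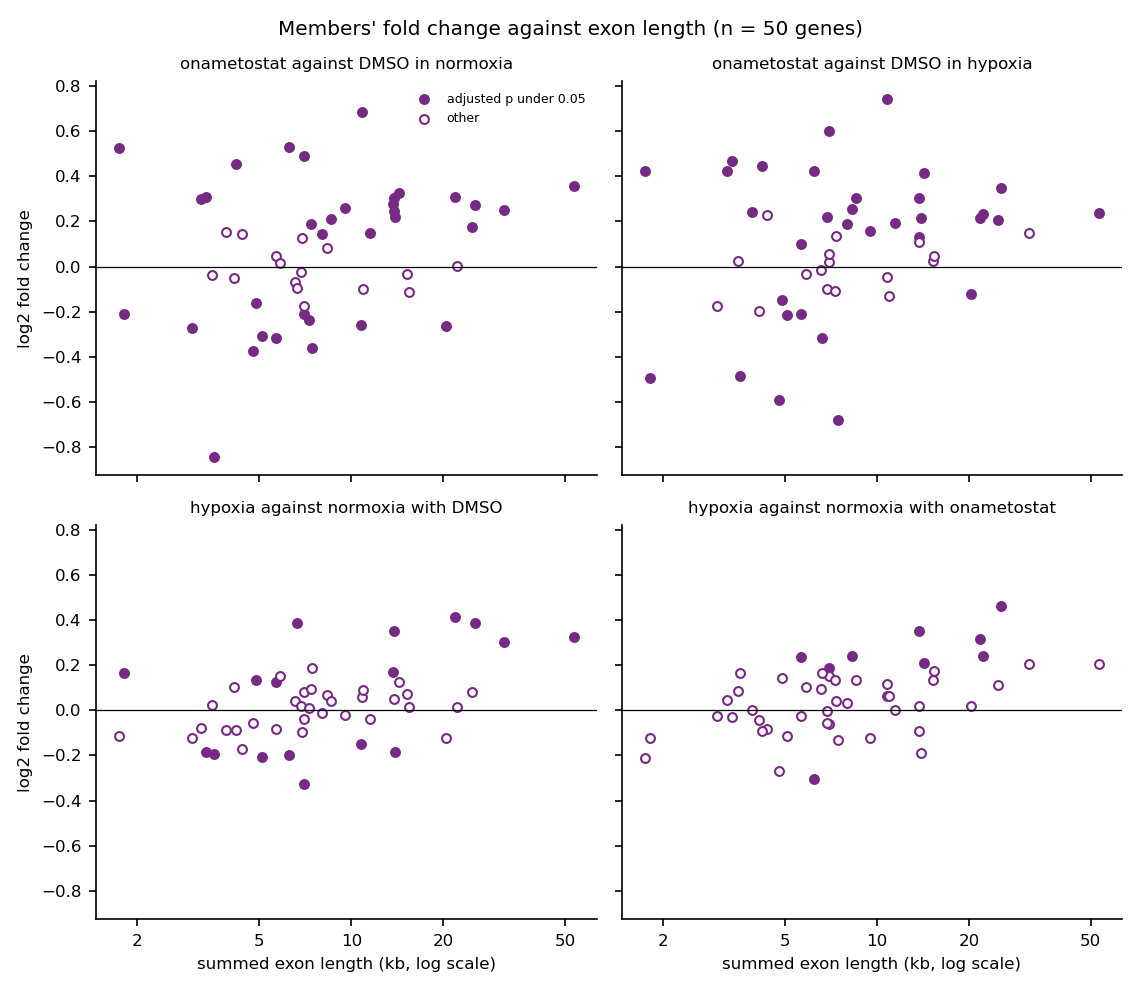
Log2 fold change of each of the 50 members against its summed exon length in kb (log scale) in the 4 comparisons, with filled points where the adjusted p was under 0.05. Members of 10 kb or more lie mostly above 0 in all 4 panels, with a rank correlation of 0.24, 0.21, 0.41 and 0.48.

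Partner genes outside the 50 were counted in the same way, to be read beside the 27.2% of all genes that rose and 29.3% that fell with the drug in normoxia and the 25.6% and 26.4% in hypoxia. Many of the counts below lie near these shares. Of 9 other PRC2 subunits measured, with the drug 5 rose and 3 fell in normoxia, and 3 and 2 did in hypoxia, with LCOR (0.32 and 0.43) and PHF1 (-0.27 and -0.36) moving most in both. Of 21 PRC1 partners 9 rose and 6 fell in normoxia and 9 and 7 in hypoxia. PHC3, a subunit of canonical PRC1, rose (0.73 and 0.65), as did MGA (0.52 and 0.54) and YAF2 (0.45 and 0.52) of variant complexes, and DCAF7 fell (-0.46 and -0.75). Of 12 COMPASS partners 5 rose and 3 fell in normoxia and 5 and 2 in hypoxia, with NCOA6 (0.52 and 0.51), HCFC1 (0.41 and 0.48) and RBBP5 (0.33 and 0.39) upwards and BOD1 (-0.37 and -0.33) downwards. Paired values here and in the next paragraphs are log2 fold changes with the drug in normoxia and in hypoxia.

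Of 13 readers and partners of lysine 9 methylation, 8 rose and 1 fell in normoxia and 9 and 1 in hypoxia. ATF7IP, a partner of SETDB1, rose (0.56 and 0.45), as did DAXX (0.48 and 0.45), and WIZ, a partner of EHMT1 and EHMT2, fell (-0.31 and -0.18). In hypoxia with DMSO 3 of the 13 rose and 1 fell (all genes 14.1% and 13.9%), with ATRX (0.40) and ATF7IP (0.36) upwards. In hypoxia with onametostat 3 rose and 0 fell (all genes 7.69% and 6.16%). Of 16 partners of DNA methylation 4 rose and 9 fell with the drug in normoxia and 5 and 4 in hypoxia. CDCA7, a cofactor of the remodeler HELLS, fell past 2-fold in both (-1.08 and -1.02) and also fell in hypoxia (-0.70 with DMSO and -0.65 with onametostat), while UHRF2 (0.67 and 0.68), MBD1 (0.56 and 0.65) and TET3 (0.52 and 0.61) rose. UHRF1, which brings DNMT1 to newly copied DNA, fell with the drug in normoxia (-0.14) and rose in hypoxia (0.12, adjusted p = 0.0472). The difference between the 2 drug effects, tested as an interaction, passed in 0 of these 16 genes with 12 libraries. It passed in 2 of them without library 3 of onametostat in hypoxia.

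Enzymes that remove lysine methylation were counted beside the same shares of all genes. Of 21 demethylases measured, with the drug 10 rose and 5 fell in normoxia, and 7 and 5 did in hypoxia, with JMJD1C (0.61 and 0.51) and KDM3A (0.40 and 0.31) upwards and KDM1B (-0.37 and -0.37) and KDM6B (-0.29 and -0.51), which acts against PRC2, downwards. In hypoxia with DMSO 7 rose and 2 fell (all genes 14.1% and 13.9%), and with onametostat 2 and 1 (7.69% and 6.16%). Of 20 other SET, PRDM or lysine methyltransferase genes, with the drug 7 rose and 7 fell in normoxia and 8 and 5 in hypoxia. Among them PRDM10 (0.76 and 0.62) and SETD4 (0.54 and 0.63) rose and ETFBKMT (-0.92 and -1.55) fell. Of these 20, 3 rose and 3 fell in hypoxia with DMSO (all genes 14.1% and 13.9%), with 1 past 2-fold upwards. With onametostat 0 rose and 0 fell in hypoxia (7.69% and 6.16%).

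Proliferation markers moved with the drug, and transcripts of some members, EZH2 and DNMT1 among them, are known to vary with proliferation. Of 23 proliferation markers 7 rose and 14 fell with onametostat in normoxia, 8 and 12 in hypoxia, 2 and 11 in hypoxia with DMSO, and 2 and 4 in hypoxia with onametostat. Over all genes 27.2% rose and 29.3% fell, 25.6% and 26.4%, 14.1% and 13.9%, and 7.69% and 6.16% in the same comparisons. Among the markers that fell in both oxygenations were RRM2 (-1.33 and -1.08 with the drug), CCNE2 (-0.99 and -0.94) and TYMS (-0.68 and -0.56). The mitotic kinases AURKA (0.55 and 0.61) and PLK1 (0.37 and 0.52) rose. The part of the cell cycle in the members' changes was not tested, and in bulk RNA fewer cells in a phase and less RNA per cell cannot be told apart.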

How the data were processed

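RNA of T98-G cells was sequenced in 12 libraries, 3 per group. According to the methods, the authors trimmed reads with fastp, aligned them with STAR to GRCh38, counted reads per gene with featureCounts under default settings, which ignore strand, and dropped weakly expressed genes (filterByExpr). GRCh37 and STAR 2.7.10a stand in the submitters' processing notes, so the build is unsettled. Positions given here are those of GRCh38. As strand was ignored, reads from overlapping antisense genes can be mixed. The methods and the labels differ on the RNA input of each library. The authors deposited unscaled integer counts for 14698 genes (14691 with a symbol).

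Counts were analysed in R 4.3.3 with edgeR 4.0.16: TMM factors, 1 quasi-likelihood fit of the 4 groups over 12 libraries without covariates, and Benjamini-Hochberg adjustment over all 14698 genes, with calls at an adjusted p under 0.05. No further filter was applied. Levels are CPM from TMM-scaled library sizes, per kilobase of summed GENCODE exons where so stated. Alternatives were RLE factors, library sizes alone, DESeq2 1.42.0, limma 3.58.1 voom with quality weights, a filter at an average log2 CPM of 1, only the compared groups, a replicate block, a 2-fold threshold, each library left out in turn, and libraries 2 and 3 of onametostat in hypoxia left out together. The procedure was tested on simulated data. The experiment numbers in the labels did not pair the libraries. Figures were drawn with matplotlib 3.10.9.

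The members, the partner and marker lists and the tests were chosen with earlier results of these data known. Values in every library are given for the 8 members with the smallest adjusted p of each comparison and for EZH1, EZH2, DNMT1, DNMT3A and DNMT3B; those of BMI1, PCGF1, CBX7, SUV39H1 and KMT5C, and the values of PLK1, were added after they were seen. Of each partner list the 4 largest called changes of a comparison could be named. Promoters came from RefSeq (GRCh38.p14), where 44 of the 50 members matched.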

Additional observations from a re-analysis of the deposited data

How the results depend on the processing

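Counts of called members moved with the processing and with the library left out. Onametostat in normoxia called 34 members (29 with DESeq2, 38 with limma voom, 31 to 37 when a library was left out), and in hypoxia 33 (24 and 31, with 24 to 33). Hypoxia called 17 with DMSO (13 and 21, with 12 to 19) and 9 with onametostat (7 and 11, with 2 to 11). The lowest of the last range was without library 1 of onametostat in hypoxia, and 5 were called without library 1 of onametostat in normoxia. A 2-fold threshold gave 0 in all 4 comparisons. The interaction gave 0 under every setting run. With a replicate block the counts were 35, 30, 17, 10 and 0; the deviations of same-numbered libraries correlated between -0.11 and 0.10 over 18 pairs, of which 1 was above 0.1, so the numbers were not taken as pairs.

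The split between directions moved with the processing in hypoxia. With library sizes alone 14 members rose and 13 fell with onametostat in hypoxia, beside 24 and 9; RNF2, CBX2, CBX6, KMT2C, KMT2D, KMT2E, DOT1L, KMT5B, SETD7 and DNMT3B were no longer called, and EZH2, CBX8, PCGF3 and EHMT2 were. RLE size factors in edgeR gave 20 and 10 there and left 10 and 7 in hypoxia with DMSO. DESeq2, which changes the test as well as the scaling, gave 15 and 9, and 6 and 7; the cause was not tested. The scalings moved the median of all genes by less than 0.1 on the log2 scale. With onametostat in hypoxia this median was -0.0805 on library sizes alone and -0.014 with TMM, where the members' median was 0.13. Of 2376 alternative values of the 24 members named by rule, 2275 kept their direction and their side of the threshold, 86 lost the call, 15 gained it and 0 reversed. The calls with onametostat in hypoxia that held in all 12 fits leaving out a library numbered 18 of 33, against 29 of 34 in normoxia, 9 of 17 in hypoxia with DMSO and 2 of 9 in hypoxia with onametostat. Library 3 of onametostat in hypoxia, with a median of 19 reads per member, limits every value of that group.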
